A study of Mus musculus with 6 samples.

Results

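The TRPC channels Trpc1, Trpc5 and Trpc6, the calcineurin genes Ppp3ca, Ppp3cb and Ppp3r1, the NFAT factors Nfatc1 and Nfatc3 and the calcineurin regulator Rcan1 were described in immortalized mouse podocytes. These 9 genes were taken by name from the 57132 genes of the count table, as parts of a single signalling route, and all 9 were listed there. RNA was sequenced from 3 samples of wildtype (WT, Col4a3+/+) podocytes, line IMWT, and 3 samples of Alport syndrome (AS, Col4a3-/-) podocytes, line IMAS. The mice were male and 8 weeks old, per the labels. The cells received no treatment, were grown at 33 °C with interferon gamma at 20 U/mL and 10% serum, and were differentiated at 37 °C for 14 days, whereas the paper's methods give a shorter differentiation and a lower interferon dose. Both lines carry the H-2Kb-tsA58 transgene, a temperature-sensitive T antigen that keeps cells dividing at the lower temperature. Each genotype was a single cell line, so genotype and line cannot be told apart, and whether the sets numbered 1 to 3 were separate cultures is not stated. If they were not, the p-values measure technical spread.

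TRPC proteins are cation channels that let calcium into the cell, often after Gq-coupled receptors and phospholipase C are engaged. In podocytes, gain-of-function variants of TRPC6 cause familial focal segmental glomerulosclerosis, and TRPC5 has been linked to Rac1 and to remodelling of the actin cytoskeleton. A rise in calcium loads calmodulin, calmodulin switches on the phosphatase calcineurin, and calcineurin removes phosphate from NFAT factors, which then enter the nucleus. Cyclosporine and tacrolimus, used in nephrotic syndrome, block this phosphatase. RCAN1 binds and restrains calcineurin, and the short form of its transcript, which begins at an internal start, is itself a classical NFAT target.

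The starts of 3 genes are shown for context, and no value below was derived from them: Rcan1 has separate windows for its long and short transcripts, and Trpc1 and Trpc6 were the TRPC channel that was expressed and the podocyte channel that was near 0 counts. RefSeq windows of GRCm38.p6, from 250 bases before to 50 bases after a start, were found for 7 of the 9 genes. In both Rcan1 windows, which lie at chr16:92466120-92466419 (distal start) and chr16:92400029-92400328 (internal start) on the minus strand, capitals mark GGAAA, the core letters of NFAT sites, or its reverse complement TTTCC.

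Rcan1, distal start: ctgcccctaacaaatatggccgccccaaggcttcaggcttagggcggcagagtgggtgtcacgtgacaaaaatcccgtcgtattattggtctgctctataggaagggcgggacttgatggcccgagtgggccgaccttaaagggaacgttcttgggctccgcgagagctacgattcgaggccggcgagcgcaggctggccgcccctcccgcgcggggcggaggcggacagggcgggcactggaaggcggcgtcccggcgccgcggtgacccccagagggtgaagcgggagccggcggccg
Rcan1, internal start: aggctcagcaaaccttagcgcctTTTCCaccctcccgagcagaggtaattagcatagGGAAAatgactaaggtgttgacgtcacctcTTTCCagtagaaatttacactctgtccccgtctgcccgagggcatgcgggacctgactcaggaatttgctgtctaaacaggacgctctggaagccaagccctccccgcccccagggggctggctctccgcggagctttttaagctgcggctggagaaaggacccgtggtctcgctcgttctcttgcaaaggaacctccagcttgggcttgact

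The window at the internal start held 3 copies and the window at the distal start held 0. Of all 32851 windows of 300 bases, 61.3% held at least 1 copy and 9.42% held at least 3, and a match of these letters is not a binding site. In the Trpc1 window at chr9:95750299-95750598 (minus strand) and the Trpc6 window at chr9:8543892-8544191 (plus strand), capitals mark CpG.

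Trpc1: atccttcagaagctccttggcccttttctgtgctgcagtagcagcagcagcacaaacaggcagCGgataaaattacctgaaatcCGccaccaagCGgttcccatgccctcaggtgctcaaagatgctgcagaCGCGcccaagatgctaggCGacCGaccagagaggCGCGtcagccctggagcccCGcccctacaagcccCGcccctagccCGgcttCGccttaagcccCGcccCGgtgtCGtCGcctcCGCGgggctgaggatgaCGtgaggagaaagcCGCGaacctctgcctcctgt
Trpc6: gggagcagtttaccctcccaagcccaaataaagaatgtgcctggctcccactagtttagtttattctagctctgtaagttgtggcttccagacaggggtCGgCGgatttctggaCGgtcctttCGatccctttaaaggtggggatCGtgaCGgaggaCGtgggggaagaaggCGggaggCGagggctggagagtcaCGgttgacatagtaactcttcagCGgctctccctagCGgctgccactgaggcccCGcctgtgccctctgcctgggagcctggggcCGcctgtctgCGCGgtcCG

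The Trpc1 window held 22 CpG and the Trpc6 window 17, against a median of 7 over all windows. At least as many were held by 23.1% of all windows for Trpc1 and 31.4% for Trpc6. Methylation was not measured in these libraries.

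The libraries held between 45417221 and 54290968 counts. Levels are given as CPM, the count scaled by library size and TMM factor. Differences are log2 ratios (log2 fold changes) of AS to WT podocytes from edgeR's two-sided quasi-likelihood test, with p adjusted over all 16263 genes that passed the low-count filter. Col4a3, the gene removed in the AS line, was at 1087 ± 170 CPM (mean ± SD, 3 samples) in WT and 68.8 ± 12.2 CPM (mean ± SD, 3 samples) in AS podocytes, with no overlap between the lines. The labelled cell type was checked on 10 podocyte markers. Tcf21, a podocyte transcription factor, had 0 counts in every sample, and Nphs1, the slit diaphragm protein nephrin, was at 0.466 CPM in WT and 0.0407 CPM in the AS line. Wt1, another podocyte transcription factor, was at 20.6 ± 5.28 and 2.50 ± 0.928 CPM (mean ± SD of 3 samples each). The summed level of the 10 markers was 1722 to 1894 CPM in WT and 1291 to 1377 CPM in the AS line, most of it from Synpo and Actn4. Of the 7 podocyte markers tested, 6 were lower in AS podocytes, where 19.6% of all tested genes were lower. Markers of other cells were summed in the same way. The 5 mesangial and pericyte markers held 5751 to 7903 CPM in WT and 6419 to 7545 CPM in the AS line, nearly all of it Acta2. Pdgfrb, a receptor of the same list, was lower in AS podocytes, at 253 ± 14.3 and 116 ± 0.362 CPM (mean ± SD of 3 samples each), with a log2 ratio of -1.12 (SE 0.06) and an edgeR adjusted p of 8.71e-07. The other 4 markers of that list did not pass. Among them, Gata3 lay above all WT samples in the AS line (log2 ratio 0.32, SE 0.14, edgeR adjusted p = 0.0891). The 5 parietal epithelial markers held 380 to 467 CPM in WT and 326 to 349 CPM in the AS line. The 5 endothelial markers held at most 1.35 CPM, the 5 leukocyte markers at most 3.14 CPM and the 5 tubule markers between 197 and 307 CPM, nearly all of it Lrp2, with Umod, Aqp2 and Cd3e at 0. The part of this marker difference in the results below was not tested, and in bulk RNA fewer cells of a kind and less RNA per cell cannot be told apart.

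Among the 9 genes, the NFAT factors Nfatc3 and Nfatc1 and the channel Trpc1 were higher in AS podocytes, the 3 calcineurin genes were slightly lower, and Rcan1 did not pass the test. Trpc5 and Trpc6 were at the edge of detection in both lines and could not be tested. Thus 6 of the 7 tested genes passed an adjusted p of 0.05 in edgeR's quasi-likelihood test, 3 higher and 3 lower, where 40.1% of all tested genes passed, 20.4% higher and 19.6% lower. With the median of each chromosome removed, 4 passed, 3 higher and 1 lower, and without AS set 2 or AS set 3 only 3 passed, 2 higher and 1 lower. Calls over all genes fell in these fits too, from 6517 of 16263. They were 5371 of 16263 with chromosome medians removed, 5414 of 16699 without AS set 2 and 5120 of 16678 without AS set 3. The AS and WT samples did not overlap in the same 6 genes, against 52.3% of all tested genes. The median log2 ratio of the 7 genes was -0.18, beside 0.0061 over all tested genes, and the median absolute log2 ratio was 0.35, beside 0.28. Per kilobase of exon, the order of levels in WT podocytes was Ppp3r1 (33.9 ± 1.07 CPM per kb), Ppp3ca (12.4 ± 1.09), Nfatc3 (10.2 ± 0.253), Rcan1 (9.06 ± 3.60), Ppp3cb (5.35 ± 0.0984), Nfatc1 (3.88 ± 0.184) and Trpc1 (1.07 ± 0.126; mean ± SD of 3 samples). Rcan1 overlapped both Nfatc3 and Ppp3ca in this order, and the other neighbours kept their order in all 3 WT samples. In AS podocytes Nfatc3 stood above Ppp3ca in all 3 samples, at 14.8 ± 0.531 and 10.4 ± 0.682 CPM per kb (mean ± SD of 3 samples each). Nfatc1 and Ppp3cb, at 4.95 ± 0.453 and 4.71 ± 0.189 CPM per kb (mean ± SD of 3 samples each), did not differ beyond their spread.

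**Figure D1:**
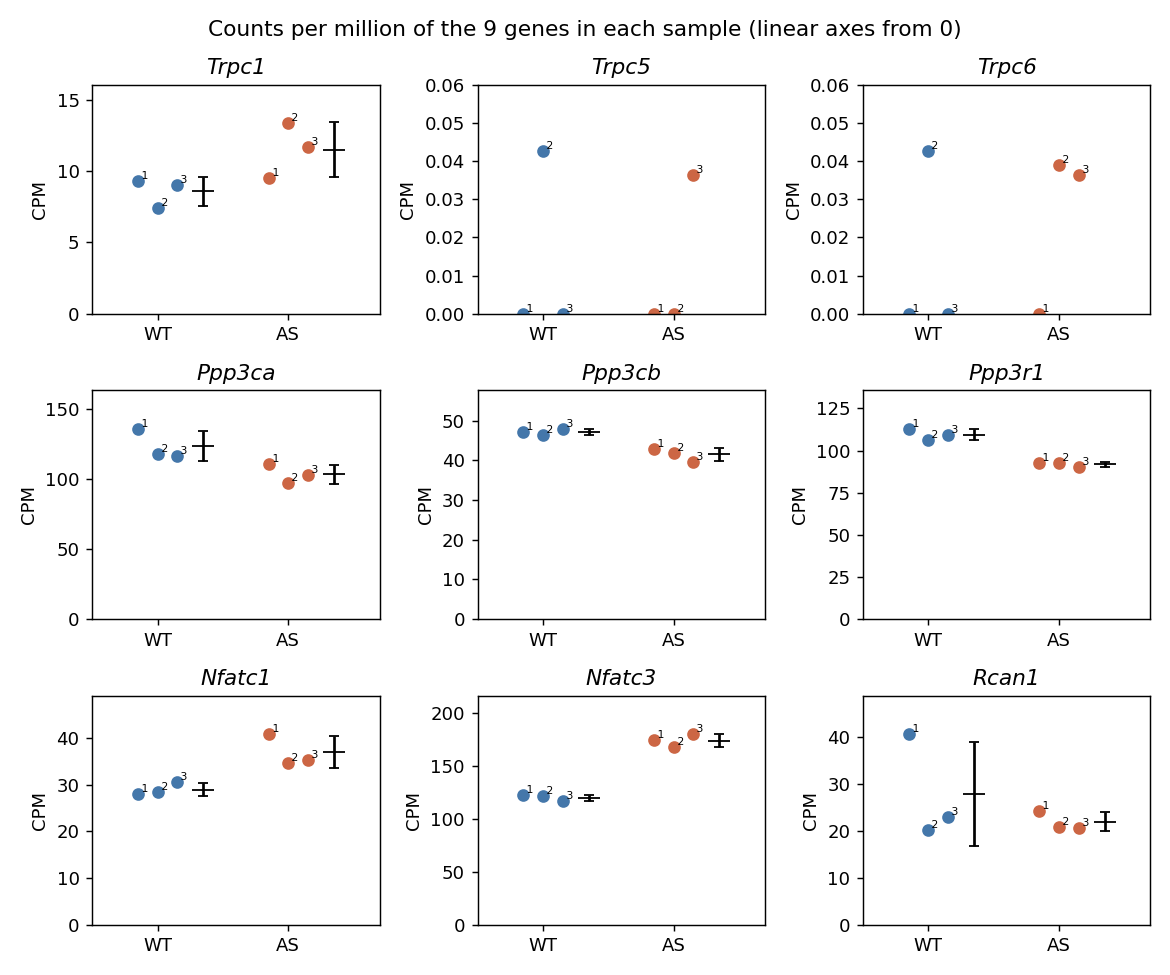
CPM of each of the 9 genes in the 3 WT (blue) and 3 AS (orange) samples, numbered by set, with the mean and SD in black where the level is above 1 CPM and linear axes from 0. AS samples lie above all WT samples for Trpc1, Nfatc1 and Nfatc3 and below them for Ppp3ca, Ppp3cb and Ppp3r1, WT set 1 stands alone for Rcan1, and Trpc5 and Trpc6 hold 2 counts at most in a library.

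Trpc1 was the TRPC channel expressed in these cells. TRPC1 forms channels mainly together with other TRPC subunits and takes part in store-operated calcium entry. Its CPM (ENSMUSG00000032839.14, chromosome 9) was 9.33, 7.43 and 9.02 in WT sets 1 to 3 and 9.48, 13.4 and 11.7 in AS sets 1 to 3. The groups did not overlap, although AS set 1 lay just above the highest WT sample. The log2 ratio was 0.42 (SE, the standard error, 0.15, edgeR adjusted p = 0.0450), a level 1.34 times that of WT. This call was near the threshold and was lost without WT set 2 (edgeR adjusted p = 0.146), WT set 3 (0.0737), AS set 2 (0.176) or AS set 3 (0.115).

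Trpc6, the podocyte channel of inherited glomerulosclerosis (ENSMUSG00000031997.10, chromosome 9), had 0, 2 and 0 counts in WT sets 1 to 3 and 0, 2 and 2 in AS sets 1 to 3. Trpc5 (ENSMUSG00000041710.5, chromosome X) had 0, 2 and 0 counts in WT and 0, 0 and 2 in AS podocytes. Each of these channels therefore stood at 0.0427 CPM or less in every library, and no difference between the lines was detectable at this depth. For comparison, 3 counts over a group correspond to 0.0209 CPM in WT and 0.0198 CPM in the AS line, a limit that covers counting error only.

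Trpc2, Trpc4 and Trpc7 were also at or near 0 counts. Trpc2 had 0 counts in all 6 samples, which allows a level of 0.0209 CPM for WT and 0.0198 CPM for AS podocytes. Trpc4 had 2 counts over the WT samples and 0 over the AS samples, and Trpc7 had 7 and 3. None of these 3 genes passed the low-count filter. Within the TRPC family, Trpc1 held 98.1 ± 1.68% of the CPM per kb in WT and 97.8 ± 1.60% in AS podocytes (mean ± SD of 3 samples each; exact two-sided permutation p = 0.80). The sign of that small difference turned when WT set 1 (0.71 percentage points) or AS set 3 (0.48) was left out.

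The 3 calcineurin genes were modestly lower in AS podocytes, at 0.838 to 0.881 times their WT level. Ppp3ca (ENSMUSG00000028161.18, chromosome 3) encodes the alpha form of the catalytic A subunit. The WT samples held 136, 118 and 117 CPM and the AS samples 110, 96.8 and 103 CPM. No AS sample reached the lowest WT sample. The log2 ratio was -0.26 (SE 0.08, edgeR adjusted p = 0.0233), a level 0.838 times that of WT. The genes of chromosome 3 as a whole had a median log2 ratio of -0.12 relative to all chromosomes. With the median of each chromosome removed, Ppp3ca was at -0.14 and did not pass (edgeR adjusted p = 0.191), and it also lost the call without AS set 2 (0.0873) or AS set 3 (0.0780).

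Ppp3cb (ENSMUSG00000021816.12, chromosome 14), the beta form of the catalytic subunit, was at 47.1, 46.3 and 48.0 CPM in WT and 42.9, 42.0 and 39.7 CPM in the AS line. The samples of each line lay close together and the lines did not overlap. Its log2 ratio was -0.18 (SE 0.06, edgeR adjusted p = 0.0327). Under 7 of 14 alternatives it did not pass, with adjusted p up to 0.127 (edgeR, without AS set 3), and the others among these were library size only, no filter on low counts, chromosome medians removed, and leaving out WT set 2, WT set 3 or AS set 2.

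Ppp3r1 (ENSMUSG00000033953.11, chromosome 11) encodes the calcium-binding regulatory B subunit that both catalytic forms need. The WT samples held 113, 106 and 109 CPM and the AS samples 92.7, 92.7 and 90.3 CPM, again with no overlap. The log2 ratio was -0.25 (SE 0.05, edgeR adjusted p = 0.00332) and the call held under each of the 14 alternatives. Of its exons, 14.3% are shared with Wdr92 on the same strand in GENCODE M21, and how reads in that stretch were counted is not stated.

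The remaining catalytic gene, Ppp3cc, did not pass the test, although it passed with library size only and without WT set 1. The WT samples held 9.21, 7.14 and 6.98 CPM and the AS samples 9.86, 9.38 and 10.0 CPM, with a log2 ratio of 0.33 (SE 0.13) and an edgeR adjusted p of 0.0729. The AS samples all exceeded the WT samples. Ppp3r2, the testis form of the B subunit, had 0 counts in all samples. Among the catalytic genes, Ppp3ca held 61.7, 60.6 and 60.0% of the CPM per kb in WT and 57.5, 55.1 and 56.7% in AS podocytes, a mean difference of -4.36 percentage points. The groups did not overlap, and the exact two-sided permutation p of 0.10 is the smallest that 3 against 3 samples allow. The summed level of the 3 catalytic genes was 20.3 ± 1.51 CPM per kb in WT and 18.3 ± 0.828 in AS podocytes (mean ± SD of 3 samples each; exact permutation p = 0.10). AS set 1 (19.2) lay only just below WT set 2 (19.4) in this sum.

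The NFAT family differed most in its make-up. Nfatc3 and Nfatc1 were higher in AS podocytes, while Nfatc4 and Nfatc2, calcineurin-dependent factors of the same family, were lower. Nfatc3 (ENSMUSG00000031902.11, chromosome 8) was at 122, 121 and 117 CPM in WT sets 1 to 3 and 174, 168 and 180 CPM in AS sets 1 to 3. The lowest AS sample stood well above the highest WT sample. Its log2 ratio was 0.54 (SE 0.05, edgeR adjusted p = 5.84e-05), a level 1.45 times that of WT. Chromosome 8 carries a shift of its own: over its 611 genes with a mean log2 CPM above 2 the median log2 ratio relative to all chromosomes was 0.31, and 88.7% of them were higher in AS podocytes. With chromosome medians removed, Nfatc3 was at 0.23 and still passed (edgeR adjusted p = 0.00982). The overlap of its exons with the opposite-strand gene Esrp2 covered 1.87% of them.

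Nfatc1 (ENSMUSG00000033016.17, chromosome 18), known for its role in osteoclasts, lymphocytes and heart valves, was at 28.0, 28.3 and 30.5 CPM in WT and 40.8, 34.7 and 35.3 CPM in the AS line. AS set 1 was the highest sample and the groups did not overlap. Its log2 ratio was 0.35 (SE 0.08, edgeR adjusted p = 0.00654). It held under each of the 14 alternatives, between 0.27 without AS set 1 and 0.47 with chromosome medians removed.

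Nfatc4 (ENSMUSG00000023411.13, chromosome 14) fell from 88.7, 79.8 and 79.4 CPM in WT to 29.6, 32.6 and 31.9 CPM in the AS line. Its log2 ratio was -1.40 (SE 0.07, edgeR adjusted p = 6.04e-07), and the lines lay far apart. Nfatc2 (chromosome 2), the main NFAT of resting T cells, was at 6.82, 9.14 and 10.0 CPM in WT and 3.09, 3.44 and 3.65 CPM in the AS line. Its log2 ratio was -1.35 (SE 0.17, edgeR adjusted p = 0.000230). Nfat5, the tonicity-responsive member that calcineurin does not control, was at 349 ± 22.8 and 578 ± 82.5 CPM (mean ± SD of 3 samples each), with a log2 ratio of 0.73 (SE 0.10) and an edgeR adjusted p of 0.000453. Nfat5 also lies on chromosome 8, and with chromosome medians removed it was at 0.42 (edgeR adjusted p = 0.0113).

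As a share of Nfatc1 to Nfatc4 per kilobase of exon, Nfatc3 held 34.6, 36.0 and 34.7% in WT sets 1 to 3 and 57.8, 57.4 and 59.3% in AS sets 1 to 3. The difference was 23.1 percentage points, with no overlap (exact two-sided permutation p = 0.10, the smallest possible). Nfatc4 held 48.8 ± 1.72% in WT and 21.2 ± 1.38% in AS podocytes, and Nfatc1 held 13.3 ± 0.904% and 19.4 ± 1.64% (mean ± SD of 3 samples each). Nfatc2 held 2.82 ± 0.605% and 1.26 ± 0.108% (mean ± SD of 3 samples each). The most abundant NFATc transcript per length was therefore Nfatc4 in every WT sample and Nfatc3 in every AS sample. The summed level of the 4 genes was 29.2 ± 0.802 CPM per kb in WT and 25.5 ± 0.543 in AS podocytes (mean ± SD of 3 samples each; exact permutation p = 0.10), with no overlap.

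**Figure D2:**
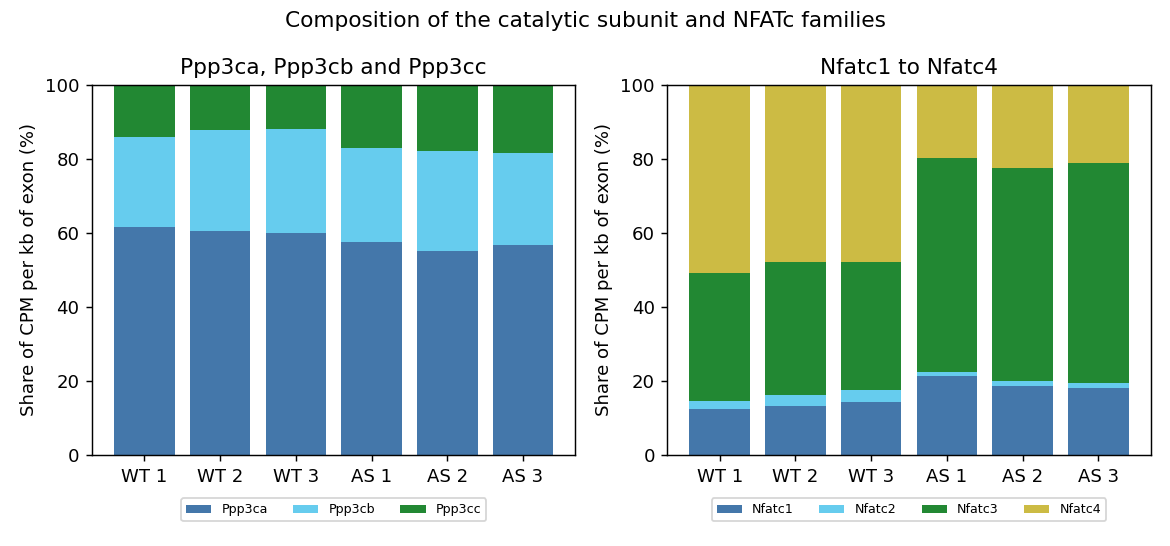
Share of CPM per kilobase of exon (%) that each gene holds within the 3 catalytic calcineurin genes (left) and within Nfatc1 to Nfatc4 (right), 1 bar per sample. Nfatc3 (green, right) takes 34.6 to 36.0% in WT and 57.4 to 59.3% in AS samples, while Nfatc4 (yellow) shrinks from 48.8% to 21.2% on average and the catalytic genes shift by a few points.

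**Figure D3:**
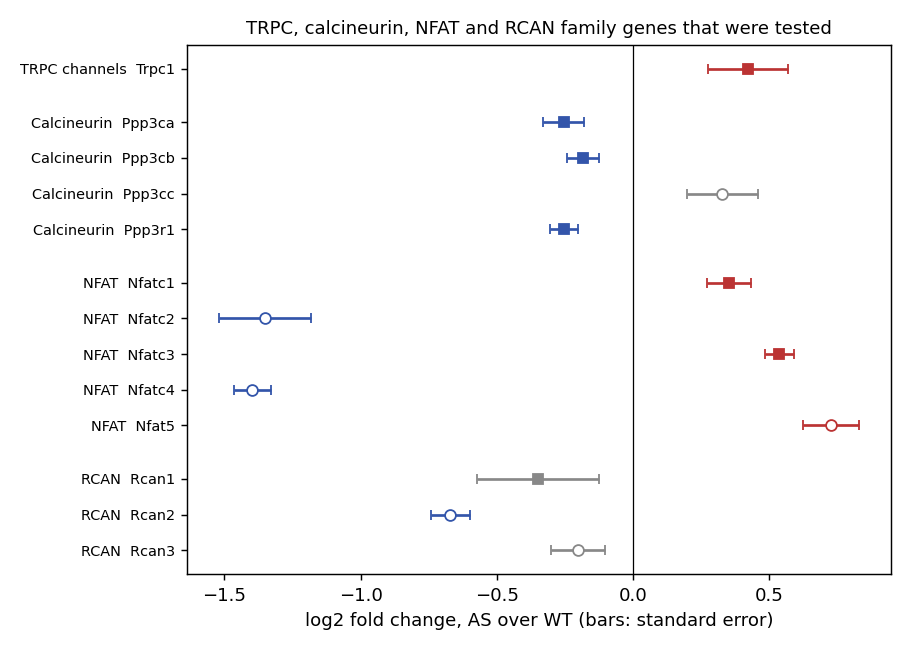
log2 ratio (AS over WT) with its standard error for every tested TRPC, calcineurin, NFAT and RCAN gene, with filled squares for the 9 genes of the rule and open circles for relatives, in red for higher, blue for lower and grey for an adjusted p of 0.05 or more. Nfatc4 (-1.40) and Nfatc2 (-1.35) stand far to the left, and Nfat5 (0.73) and Nfatc3 (0.54) to the right.

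Rcan1 (ENSMUSG00000022951.19, chromosome 16) had a value that turned on a single library. The WT samples held 40.7, 20.2 and 22.9 CPM and the AS samples 24.3, 20.9 and 20.7 CPM. WT set 1 stood at 1.86 times the mean of the other 5 samples, which all lay between 20.2 and 24.3 CPM. The log2 ratio was -0.35 (SE 0.22, edgeR adjusted p = 0.245), and without WT set 1 it was 0.024 (edgeR adjusted p = 0.871). It passed in a single alternative, the fit with no filter on low counts (edgeR adjusted p = 0.0167). Counts per gene do not separate the transcripts of its distal and internal starts, whose windows are printed above.

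The genes whose log2 CPM followed Rcan1 most closely over the 6 samples, among 12911 genes with a mean of at least 1 CPM, were Pax8 (Pearson r = 0.991), Dusp10 (r = 0.990) and Hnrnpul1 (r = 0.984). These values share the libraries and rest on WT set 1. Dusp10, a phosphatase of stress-activated kinases, was at 63.7 CPM there and between 15.1 and 24.6 CPM in the other 5 samples. Pax8 was at 272 CPM against 190 to 208 CPM. Ptgs2, the cyclooxygenase-2 gene and a known NFAT target, was named after its values were seen: it was at 471 CPM in WT set 1 and between 108 and 212 CPM elsewhere. Its list, calcineurin substrates and NFAT targets, was mixed in WT set 1. Synpo (847 CPM) and Dnm1l (160 CPM) were also highest there. Plaur was lowest there among the WT samples (35.8 against 37.8 and 38.7 CPM), and Fzd9, with 5 counts, was lowest of all 6. What raised Rcan1, Dusp10, Pax8 and Ptgs2 in this library was not tested. The likeness was not computed for Trpc6, whose mean was below 1 CPM.

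Of the relatives of Rcan1, Rcan2 was clearly lower in AS podocytes. It was at 156, 137 and 159 CPM in WT and 101, 93.0 and 90.4 CPM in the AS line, with a log2 ratio of -0.67 (SE 0.07) and an edgeR adjusted p of 8.61e-05. Rcan3 was at 27.1 ± 3.39 and 23.6 ± 1.59 CPM (mean ± SD of 3 samples each) and did not pass (log2 ratio -0.20, SE 0.10, edgeR adjusted p = 0.133). It did pass without WT set 1, and with chromosome medians removed it was at -0.027. Per kilobase, Rcan2 was the most abundant of the 3 in both lines, at 34.5 ± 2.69 CPM per kb in WT and 21.7 ± 1.24 in AS podocytes (mean ± SD of 3 samples each).

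**Figure D4:**
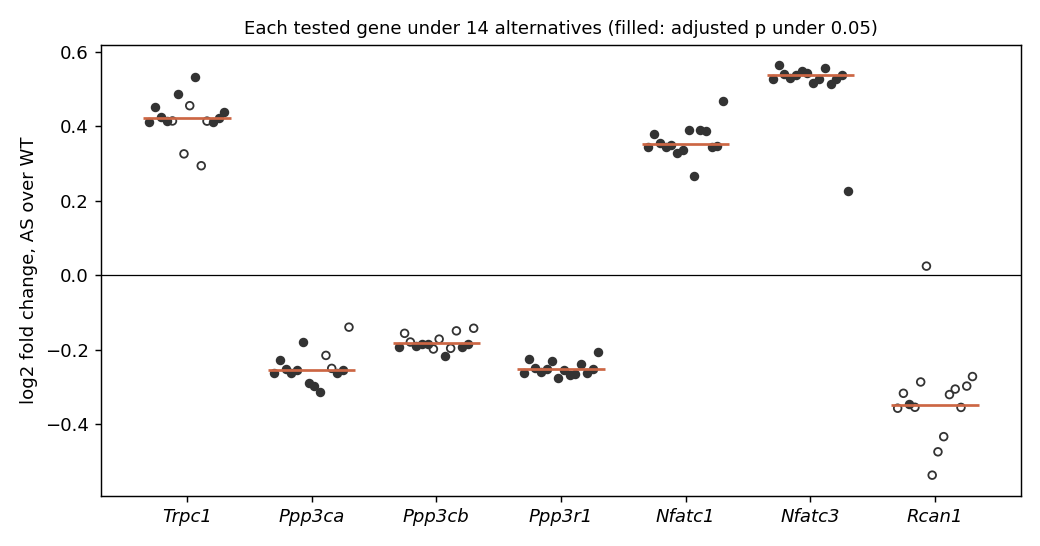
log2 ratio (AS over WT) of the 7 tested genes, with the reported value as an orange line and 14 alternatives as points, filled where the adjusted p was under 0.05. Ppp3r1, Nfatc1 and Nfatc3 are filled throughout, Nfatc3 drops to 0.23 once chromosome medians are removed, and Rcan1 moves to 0.024 without WT set 1.

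The wider pathway was followed in 8 lists with 61 genes, the relatives above included. Of these, 51 were tested, with 11 higher in AS podocytes, 20 lower and 20 that did not pass. Over all tested genes 40.1% passed, 20.4% higher and 19.6% lower. The number of pathway genes that passed ran from 25 (without AS set 3) to 37 (without WT set 1) when 1 sample was left out. Over all genes, 5120 of 16678 and 6776 of 16776 passed in these fits. The median log2 ratio of the 51 pathway genes was -0.12, beside 0.0061 over all tested genes, and the median absolute value was 0.32, beside 0.28.

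Calmodulin carries the calcium signal to calcineurin, and AKAP5 and CABIN1 anchor or inhibit it. In this list of 8 genes, 1 was higher, 4 were lower and 3 did not pass, beside 20.4% higher and 19.6% lower over all tested genes. Calm3 was at 283 ± 7.87 CPM in WT and 215 ± 3.98 CPM in the AS line (mean ± SD of 3 samples each), with a log2 ratio of -0.40 (SE 0.05) and an edgeR adjusted p of 0.000374. Calm2, which encodes the same protein, was at -0.016 on the log2 scale and did not pass. Akap5, an anchor that holds calcineurin at the membrane, was at 15.2 ± 3.70 and 7.55 ± 0.563 CPM (mean ± SD of 3 samples each), or 0.498 times the WT level (SE of the log2 ratio 0.17, edgeR adjusted p = 0.00138). Cabin1, a calcineurin inhibitor, had a log2 ratio of 0.41 (SE 0.07) and an edgeR adjusted p of 0.00101. It lies on chromosome 10, whose 523 genes above that level had a median of 0.31, and with chromosome medians removed it was at 0.10 and did not pass. Reads from calmodulin genes and from Ppia can be shared with near-identical copies, so their values are uncertain.

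NFAT kinases return NFAT to the cytoplasm, and Homer proteins scaffold calcium signalling, with HOMER2 and HOMER3 known to compete with calcineurin for NFAT. Of 8 genes, 2 were higher, 3 were lower and 3 did not pass, beside 20.4% higher and 19.6% lower over all tested genes. Dyrk2 rose from 50.9 ± 3.90 to 77.4 ± 3.30 CPM (mean ± SD of 3 samples each), with a log2 ratio of 0.61 (SE 0.07) and an edgeR adjusted p of 0.000137. It was at 0.30 with the shift of chromosome 10 removed and still passed. Homer3 was at 0.42 (SE 0.07, edgeR adjusted p = 0.00118), which fell to 0.11 with the chromosome 8 median removed and did not pass. Homer2 was scarce, at 0.767 ± 0.108 and 0.224 ± 0.123 CPM (mean ± SD of 3 samples each), with a log2 ratio of -1.74 (SE 0.43) and an edgeR adjusted p of 0.00988.

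Store-operated entry refills the endoplasmic reticulum through STIM sensors and ORAI channels, and IP3 receptors release its calcium. Here 3 genes were higher, 3 were lower and 2 did not pass, beside 20.4% higher and 19.6% lower over all tested genes. The IP3 receptor genes split. Itpr3 rose from 48.7 ± 4.75 to 93.7 ± 8.43 CPM (mean ± SD of 3 samples each), with a log2 ratio of 0.95 (SE 0.09) and an edgeR adjusted p of 4.00e-05, and Itpr2 was higher by 0.63 (SE 0.10, edgeR adjusted p = 0.00107). Itpr1 was lower, at -0.39 (SE 0.10, edgeR adjusted p = 0.0126), and it did not pass once the median of chromosome 6 was removed (-0.17). The sensor Stim1 fell from 188 ± 5.31 to 141 ± 9.32 CPM (mean ± SD of 3 samples each), with a log2 ratio of -0.42 (SE 0.06) and an edgeR adjusted p of 0.000626.

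Among Gq and phospholipase C genes, which lie upstream of TRPC opening, 2 of the 7 tested were higher, 1 was lower and 4 did not pass. Over all tested genes 20.4% were higher and 19.6% lower. Plce1, the phospholipase whose loss causes early nephrotic syndrome, fell from 8.14 ± 1.54 to 2.09 ± 0.412 CPM (mean ± SD of 3 samples each). Its log2 ratio was -1.96 (SE 0.20, edgeR adjusted p = 6.53e-05) and it was called under each of the 14 alternatives. Plcb3 and Gnaq, both on chromosome 19, were at 0.49 (SE 0.10, edgeR adjusted p = 0.00322) and 0.21 (SE 0.06, edgeR adjusted p = 0.0260). With chromosome medians removed Plcb3 was at 0.32 (edgeR adjusted p = 0.0306), and Gnaq was at 0.037 and did not pass. Gnaq also lost its call without WT set 2, WT set 3 or AS set 1. The angiotensin receptor genes Agtr1a and Agtr1b, named after their values were seen, had 1 and 2 counts over the WT samples and 0 over the AS samples, and did not pass the low-count filter.

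Calcineurin substrates and NFAT targets described in podocytes formed a list of 10 genes. Of these, 1 was higher, 4 were lower, 4 did not pass and 1 (Wnt6) was too scarce to test. The shares over all tested genes were 20.4% higher and 19.6% lower. Synpo, the actin-bundling protein synaptopodin that calcineurin dephosphorylates, fell from 803 ± 44.2 to 526 ± 30.8 CPM (mean ± SD of 3 samples each), with a log2 ratio of -0.61 (SE 0.07) and an edgeR adjusted p of 0.000144. It is also a podocyte marker and moved with that list. Plaur, the urokinase receptor gene, was at -0.41 (SE 0.06, edgeR adjusted p = 0.000727) and Crtc2, a CREB coactivator, at -0.22 (SE 0.06, edgeR adjusted p = 0.0182). Crtc2 lost its call without WT set 3, without AS set 3 and with chromosome medians removed. Ptgs2, at a log2 ratio of -0.81 (SE 0.43), did not pass (edgeR adjusted p = 0.163) and, like Rcan1, was highest in WT set 1. Its log2 ratio ran from -1.17 to -0.042 over the alternatives, and it passed with no filter on low counts.

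Other calcium-permeable TRP channels were measured beside the TRPC genes. Of 6 genes, 1 was higher, 2 were lower, 2 did not pass and Trpa1 had 0 counts, beside 20.4% higher and 19.6% lower over all tested genes. Trpv4, an osmosensitive channel, was at 111 ± 25.4 CPM in WT and 54.5 ± 6.29 CPM in the AS line (mean ± SD of 3 samples each), with a log2 ratio of -1.03 (SE 0.15) and an edgeR adjusted p of 0.000534. Trpv2 fell from 15.8 ± 2.86 to 5.98 ± 0.732 CPM (mean ± SD of 3 samples each), with a log2 ratio of -1.40 (SE 0.15) and an edgeR adjusted p of 0.000104. Pkd2, the polycystin-2 channel of polycystic kidney disease, rose from 165 ± 8.25 to 271 ± 10.9 CPM (mean ± SD of 3 samples each), with a log2 ratio of 0.72 (SE 0.06) and an edgeR adjusted p of 2.05e-05. Per kilobase, Trpv4 (27.2 CPM per kb) and Pkd2 (16.2) stood above Trpc1 (1.07) in WT podocytes, as they did in AS podocytes (13.4 and 26.6 against 1.43).

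**Figure D5:**
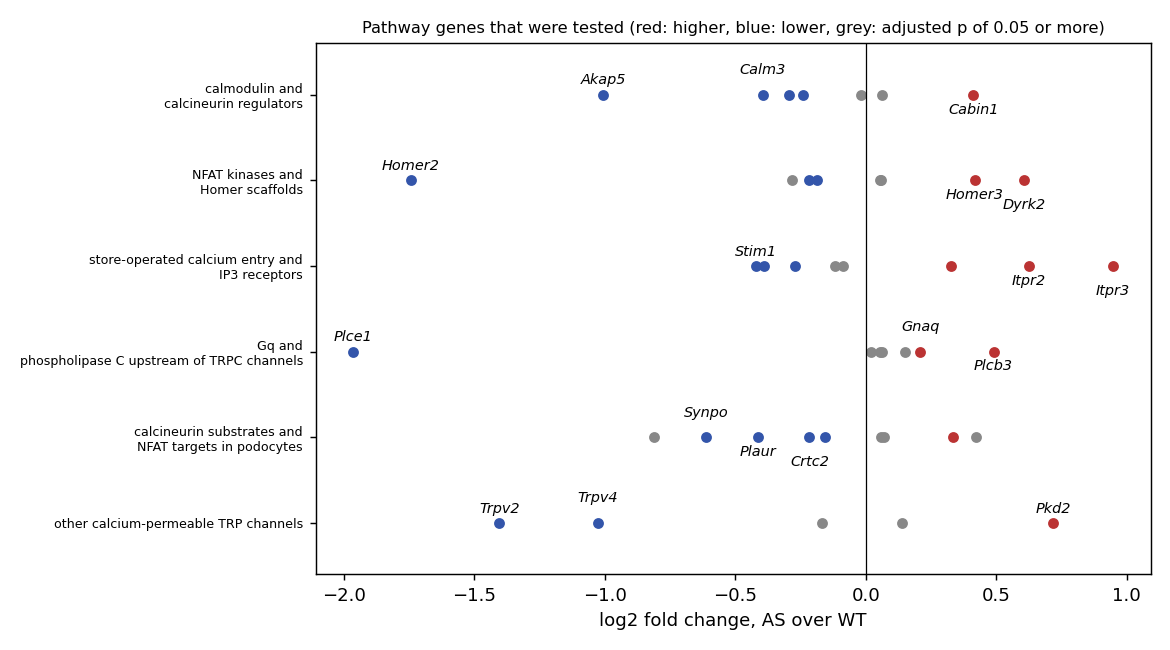
log2 ratio (AS over WT) of tested genes of 6 pathway lists, 1 row per list, with the 3 genes of smallest adjusted p in each list named, in red for higher, blue for lower and grey for an adjusted p of 0.05 or more. Plce1 (-1.96), Homer2 (-1.74) and Trpv2 (-1.40) lie farthest to the left and Itpr3 (0.95) farthest to the right, and most genes lie within 0.5 of 0.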

How the data were processed

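RNA was measured in 3 WT and 3 AS podocyte samples, from libraries made with 15 cycles of PCR. The authors deposited raw counts of reads per gene, with no normalization. The submitters' processing notes name FastQC, Trim Galore, STAR, edgeR and mm39, without versions or roles. Not given in the sources used here were the counter and its strand setting. Of 57132 identifiers, 51880 matched GENCODE M21 (GRCm38) without the version, and 0.363% of all counts fell on genes lacking a symbol. As the builds differ, M21 gave names, exon lengths and chromosomes only.

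The analysis ran in R 4.3.3, edgeR 4.0.16, with filterByExpr (minimum count 10, minimum total count 15), TMM, and a quasi-likelihood test whose model held genotype alone, with Benjamini-Hochberg adjustment over all tested genes. The standard error is the log2 fold change over the square root of F, an approximation. The code was tested on simulated data. DESeq2 1.42.0, limma-voom (limma 3.58.1, the test named by the paper), other scalings and filters, a replicate block, removal of chromosome medians (taken over genes with a mean log2 CPM above 2) and leaving out each sample were alternatives. Levels per kilobase used the union of exons, and permutation tests were exact. Total counts of 45417221 to 54290968 set the precision, and limits cover counting error alone, as PCR copies cannot be told from separate molecules.

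The members and lists were chosen with earlier results of these data known. Named genes were the 9 members, every TRPC, Ppp3, Nfat and Rcan gene, up to 3 genes per pathway list with the smallest adjusted p, Col4a3, and the 3 genes most correlated with Trpc6 and with Rcan1 over the 6 samples. Markers were named to check the cell type. Of list members outside this rule, those in the text were named after their values were seen. Some genes of these lists are not reported here.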

Additional observations from a re-analysis of the deposited data

How the results depend on the processing

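Of 98 values of the 7 tested genes under the 14 alternatives, 81 kept their direction and side of the threshold, 15 lost the threshold, 1 gained it and 1 changed sign. The number of the 9 genes called was 6, and it ran from 3 (without AS set 2 or AS set 3, where Trpc1, Ppp3ca and Ppp3cb were lost) to 6 with 1 sample left out. With chromosome medians removed 4 were called, 3 higher and 1 lower. The number of pathway genes called was 31 and ran from 25 to 37 with 1 sample left out. Calls over all genes numbered 6517, and 5371 with chromosome medians removed. With 1 sample left out they ran from 5120 (without AS set 3) to 6776 (without WT set 1). Rcan1 ran from -0.54 without WT set 2 to 0.024 without WT set 1. The AS minus WT difference in the Ppp3ca share was -4.36 percentage points, -2.33 without division by length and -3.12 with the longest transcript, and ran from -4.89 to -3.69 with 1 sample left out. The Nfatc3 share difference was 23.1 points, 20.9 without division by length. The Trpc1 share difference was -0.25 points and ran from -1.11 to 0.71 with 1 sample left out. The causes of these changes were not tested, and the fits with 1 sample left out also held fewer samples.

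Whether the replicate numbers pair the samples was not settled. Equal numbers had correlations of 0.147, 0.0939 and 0.0526 between their deviations from group means, and unequal numbers ran from -0.130 to 0.0571. Each AS sample correlated best with the WT sample of its own number, but WT set 3 correlated slightly better with AS set 2. With the replicate block, 5 of the 9 genes were called (Trpc1 was at 0.41, adjusted p = 0.0543, edgeR), 36 pathway genes were called (Ppp3cc, Rcan3 and Ptgs2 now among them), and calls over all genes went from 6517 to 7066. Depth limits Trpc5, Trpc6 and the other TRPC genes near 0 counts.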
